A study of Mus musculus with 4 samples.

Results

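The genes described here are the sensors that detect foreign chemicals in the intestinal epithelium, the pumps that export them and the enzymes that detoxify them. The members were fixed by name as 10 genes, and every probe set named for 1 of them alone was taken. That gave 12 probe sets for 9 of the genes, out of 45037 probe sets in the table and 18193 genes with a probe set of their own. Nr1i2, Ahr and Abcb1a had 2 probe sets each and Nr1i3, Abcc2, Abcc3, Abcg2, Nqo1 and Ephx1 had 1 each. Por, which encodes the reductase that passes electrons to P450 enzymes, was not analysed here, since no probe set was named for it.

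The study compared epithelial cells from the small intestine of mice without the AP-1B adaptor (genotype AP-1B-/-, 2 arrays, called knockout 1 and 2) with those of heterozygous mice (AP-1B+/-, 2 arrays, called heterozygous 1 and 2). Both groups were C57BL/6J adults, 10 weeks of age, healthy, and kept specific pathogen-free. The epithelium had been loosened in EDTA and picked with a needle under a stereomicroscope. Neither the removed part of the gene nor the number of animals behind an array is stated, and no wild-type array was analysed here. Every SD here covers the spread between the 2 arrays of a label. The standard errors and intervals come from the limma fit. Its eBayes step draws them toward the spread of other probe sets of like signal, so they do not measure the spread of a probe set alone. The spread between the 2 arrays of a label may be technical in part, and these arrays also differ in sex pattern, as given below.

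An enterocyte meets drugs, plant compounds and bile acids in the gut lumen. The pregnane X receptor PXR (Nr1i2) and the constitutive androstane receptor CAR (Nr1i3) are nuclear receptors that pair with RXR and switch on P450 enzymes, conjugating enzymes and pumps. The aryl hydrocarbon receptor AhR (Ahr) pairs with ARNT and does the same in answer to planar aromatic compounds and dietary indoles. The products leave the cell through ATP-driven pumps, of which P-glycoprotein (Abcb1a), MRP2 (Abcc2) and BCRP (Abcg2) sit in the apical membrane facing the lumen, and MRP3 (Abcc3) in the basolateral membrane facing the blood.

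The stretches of DNA before the transcription starts of Ephx1 and of 3 pumps are shown because these are the members whose signals differed most between arrays. They are the 250 bases before the start in RefSeq (GRCm38.p6), 5′ to 3′ on the strand of the gene. Windows were matched by symbol for 8 of the 10 genes, all but Ahr and Abcc3. Capitals mark matches, on either strand, to 4 short motifs, which are the AhR and ARNT core GCGTG, the NRF2 core TGACNNNGC, and the nuclear receptor half-sites AGGTCA and AGTTCA. The NRF2 core and the reverse strand of AGGTCA share their first letters, TGAC. The windows are Ephx1 at chr1:181017570-181017819 (minus strand), Abcb1a at chr5:8566841-8567090 (plus), Abcc2 at chr19:43782058-43782307 (plus), and 2 of the 3 listed for Abcg2, at chr6:58584283-58584532 and chr6:58640296-58640545 (both plus).
Ephx1: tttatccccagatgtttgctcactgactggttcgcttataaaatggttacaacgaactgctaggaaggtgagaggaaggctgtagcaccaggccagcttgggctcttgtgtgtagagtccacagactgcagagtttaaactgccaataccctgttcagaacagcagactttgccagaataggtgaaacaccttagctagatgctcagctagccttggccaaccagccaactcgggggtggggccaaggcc
Abcb1a: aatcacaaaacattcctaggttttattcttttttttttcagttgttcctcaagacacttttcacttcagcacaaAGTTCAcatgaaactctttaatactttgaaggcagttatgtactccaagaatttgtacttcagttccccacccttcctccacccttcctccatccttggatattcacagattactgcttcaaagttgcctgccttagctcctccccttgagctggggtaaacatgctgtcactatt
Abcc2: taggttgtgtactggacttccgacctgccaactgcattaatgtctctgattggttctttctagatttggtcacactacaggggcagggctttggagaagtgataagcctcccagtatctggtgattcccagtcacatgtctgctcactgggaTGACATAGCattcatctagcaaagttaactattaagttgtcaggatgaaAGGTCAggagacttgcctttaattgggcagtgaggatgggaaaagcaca
Abcg2, start 1: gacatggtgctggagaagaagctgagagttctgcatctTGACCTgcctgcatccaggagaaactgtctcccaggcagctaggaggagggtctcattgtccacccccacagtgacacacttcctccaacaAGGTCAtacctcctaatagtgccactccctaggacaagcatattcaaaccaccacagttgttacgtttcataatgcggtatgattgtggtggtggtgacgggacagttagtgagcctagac
Abcg2, start 3: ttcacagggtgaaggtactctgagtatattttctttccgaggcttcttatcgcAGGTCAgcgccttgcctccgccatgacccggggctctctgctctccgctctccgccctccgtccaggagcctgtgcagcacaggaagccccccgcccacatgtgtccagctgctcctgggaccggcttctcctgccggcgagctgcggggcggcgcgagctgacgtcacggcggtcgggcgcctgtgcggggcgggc

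The Abcc2 window held 1 NRF2 core and 1 AGGTCA, that of Abcb1a held 1 AGTTCA, and those of Abcg2 held 2 and 1 AGGTCA. None of the 4 motifs was in the windows of Ephx1, Nqo1, Nr1i2, Nr1i3 or start 2 of Abcg2, which says only that these letters do not occur there. The window of Por, whose signal was not analysed, held 3 GCGTG and none of the other motifs, and no other member window held GCGTG. Among all 32851 windows of the same length, GCGTG occurred in 28.2%, TGACNNNGC in 10.2%, AGGTCA in 14.0% and AGTTCA in 11.8%. A match is a description of the sequence.

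Signals are multiples of the array median, and levels are compared between arrays for 1 probe set at a time. Ap1m2, which encodes the mu subunit of AP-1B, had a signal of 2.49 and 22.3 on knockout 1 and 2, against 19.9 and 4.33 on heterozygous 1 and 2. Its level was thus high on the library labelled knockout 2 and low on the library labelled heterozygous 2, which goes against those 2 labels. Whether the probe set lies outside the deleted part is not known, and the cause of these levels was not tested. All directions below follow the labels, and results that turn on these arrays are given for each array. The Y-linked Eif2s3y had 24.1 and 0.051 on knockout 1 and 2, against 12.1 and 0.256 on heterozygous 1 and 2, and Xist ran the other way, so replicate 1 was of male and replicate 2 of female pattern, and a comparison within a replicate number is also one within a sex pattern. The 75th percentile of signal was 5.57 and 4.27 on knockout 1 and 2, and 4.13 and 5.54 on heterozygous 1 and 2, so probe sets above the median tended to read higher on knockout 1 and heterozygous 2. For this reason values after quantile normalization are also given. The cells carried the defining transcripts of enterocytes, with 19 of 20 listed markers above the low-value filter. Their summed signal was 5370 and 4911 on the arrays labelled knockout, and 5823 and 5713 on those labelled heterozygous.

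The 3 sensors varied little. PXR was read by 2 probe sets of Nr1i2. The first (1425723_at) had 12.8 and 8.46 on knockout 1 and 2, against 8.57 and 12.5 on heterozygous 1 and 2. The second (1451807_at) had 14.8 and 13.4 on knockout 1 and 2, against 11.4 and 14.0 on heterozygous 1 and 2. The labelled groups overlapped for both, and the highest array was 1.51 and 1.30 times the lowest. After quantile normalization the first probe set was nearly level over the 4 arrays, at 10.9 and 10.1 on the knockout arrays and 10.6 and 10.6 on the heterozygous arrays, and 99.1% of probe sets above the filter had a range at least as wide. The second then had 12.6 and 16.2 on the knockout arrays, against 14.2 and 11.8 on the heterozygous arrays, so its highest array became knockout 2 in place of knockout 1. The log2 differences, knockout minus heterozygous, were 0.011 and 0.16, with standard errors of 0.54 and 0.53. The first of these was −0.012 after quantile normalization and −0.015 with median centring.

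CAR, read by 1 probe set of Nr1i3 (1425392_a_at), had 15.4 and 14.4 on knockout 1 and 2, against 12.6 and 18.1 on heterozygous 1 and 2. Both knockout values lay between the heterozygous ones, and the log2 difference was −0.019 with a standard error of 0.54. Heterozygous 2 was the highest array, and after quantile normalization it became knockout 2, so the order of arrays for CAR depends on the scaling.

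AhR was read by 2 probe sets, and both had a lower mean on the arrays labelled knockout. Its brighter probe set (1422631_at) had 14.5 and 9.77 on knockout 1 and 2, against 13.7 and 15.4 on heterozygous 1 and 2. The dimmer (1450695_at), close to the array median, had 1.19 and 0.900 on knockout 1 and 2, against 1.31 and 1.31 on heterozygous 1 and 2. Knockout 2 was lowest for both, while knockout 1 lay among or just below the heterozygous arrays. The log2 differences were −0.28 and −0.26, with standard errors of 0.54 and 0.45. Without knockout 2 they were −0.0021 and −0.11, and without knockout 1 they were −0.56 and −0.42. After quantile normalization both knockout arrays lay below both heterozygous arrays for each probe set. Of all probe sets above the filter, 11% did so. The brighter one had 12.3 and 11.7 on the knockout arrays against 17.1 and 12.9 on the heterozygous arrays. For the dimmer these were 1.18 and 0.900 against 1.32 and 1.29. On the deposited values the groups overlapped for the brighter one.

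**Figure D1:**
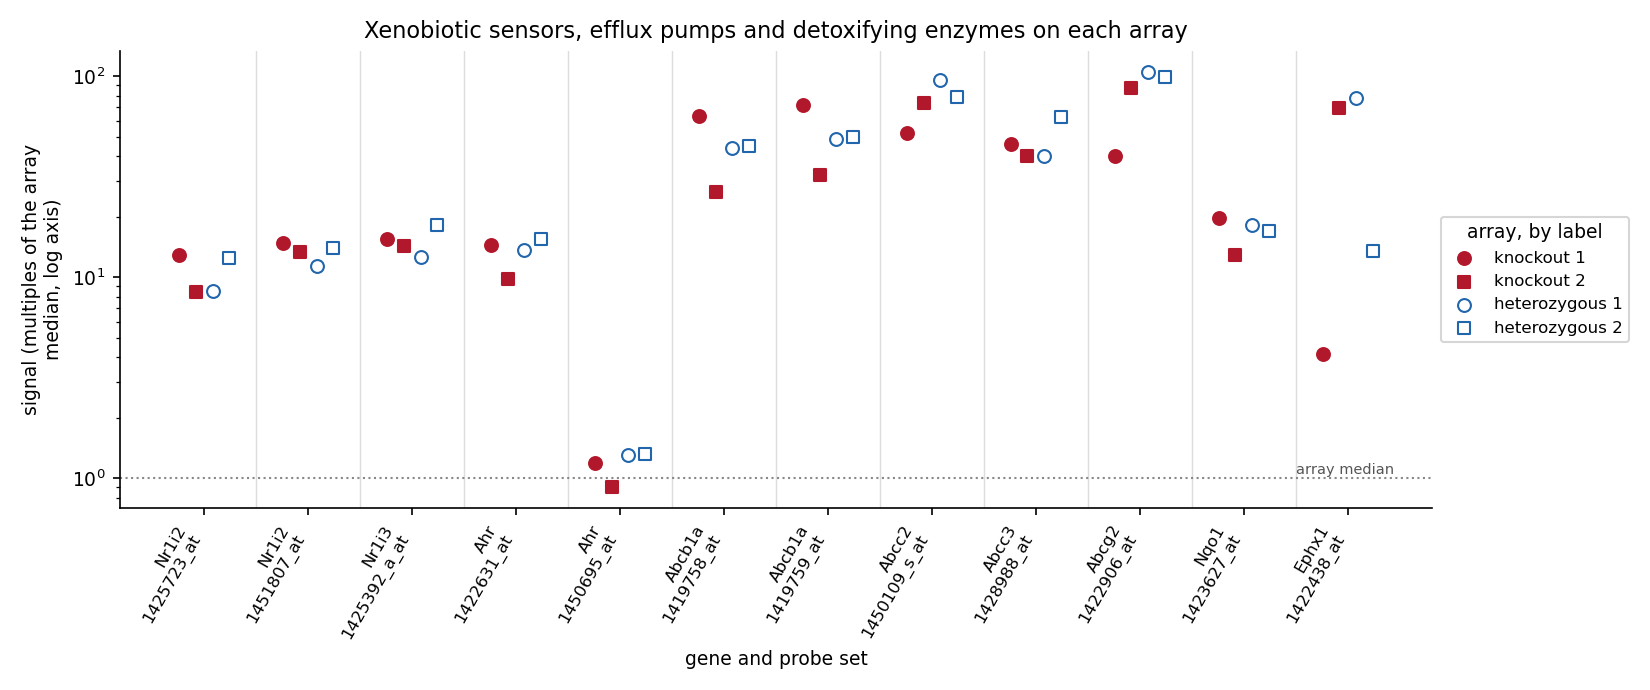
Signal of each of the 12 probe sets on the 4 arrays, as multiples of the array median on a log axis; filled red points are arrays labelled knockout and open blue points those labelled heterozygous, with circles for replicate 1 and squares for replicate 2. Ephx1 spans 4.13 to 77.9, and the sensors Nr1i2, Nr1i3 and Ahr stay within 1.58-fold over the arrays.

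The apical pumps differed more between arrays than the sensors, and not in the same direction. Abcb1a, the P-glycoprotein gene that in rodents shares its task with Abcb1b, was highest on knockout 1 and lowest on knockout 2. Its first probe set (1419758_at) had 63.0 and 26.4 on knockout 1 and 2, against 43.7 and 44.9 on heterozygous 1 and 2. Its second (1419759_at) had 72.1 and 32.3 on knockout 1 and 2, against 48.6 and 49.9 on heterozygous 1 and 2. The 2 heterozygous arrays lay close together between the knockout arrays, which were 2.39-fold and 2.23-fold apart. The log2 differences were therefore near 0, at −0.12 and −0.028 with standard errors of 0.59 and 0.57. Without knockout 2 they were 0.51 and 0.55, and without knockout 1 they were −0.74 and −0.60. After quantile normalization knockout 1 and heterozygous 1 were alike (54.1 and 53.9 for the first probe set), above knockout 2 (32.2) and heterozygous 2 (37.0).

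The paralog Abcb1b was dim. Of its 2 probe sets, 1446701_at passed the filter with 0.912 and 1.07 on the knockout arrays, against 0.776 and 1.36 on the heterozygous arrays, and 1418872_at, with 0.197 and 0.866 against 0.292 and 0.549 in the same order of groups, did not. Nearly identical paralogs can share probes, and the share of Abcb1b transcript in the Abcb1a signal was not tested.

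Abcg2, which encodes BCRP, had 40.1 and 87.2 on knockout 1 and 2, against 105 and 98.6 on heterozygous 1 and 2 (1422906_at). Knockout 1 stood apart, and knockout 2 lay just below the heterozygous arrays. The mean was 63.7 ± 33.3 on the knockout arrays and 102 ± 4.76 on the heterozygous arrays (SD, n = 2 each). The log2 difference was −0.78 with a standard error of 0.54 and a 95% interval of −1.95 to 0.39. Without knockout 1 it was −0.22, and without knockout 2 it was −1.34. After quantile normalization knockout 2 (105) was above heterozygous 2 (81.8), so the groups then overlapped.

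Abcc2, which encodes MRP2, the exporter of glutathione and glucuronide conjugates, followed Abcg2. It had 52.3 and 73.5 on knockout 1 and 2, against 95.6 and 78.4 on heterozygous 1 and 2 (1450109_s_at), with a log2 difference of −0.48 and a standard error of 0.51. Knockout 1 was again lowest, and after quantile normalization knockout 2 (89.5) again lay above heterozygous 2 (64.5). The suffix of this probe set marks probes that can match more than 1 transcript. The centred patterns of Abcc2 and Abcg2 over the 4 arrays lay 0.28 apart as a root mean square on the log2 scale, nearer to each other than either was to any other member gene.

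The basolateral pump Abcc3 had 46.0 and 40.2 on knockout 1 and 2, against 40.2 and 62.2 on heterozygous 1 and 2 (1428988_at). Heterozygous 2 lay above the other 3 arrays, and the log2 difference was −0.22 with a standard error of 0.54. After quantile normalization the values were 39.4 and 49.3 on the knockout arrays and 49.5 and 51.4 on the heterozygous arrays, with knockout 1 lowest as for the apical pumps Abcc2 and Abcg2.

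The 2 detoxifying enzymes behaved differently from each other. Nqo1, the quinone reductase that both AhR and NRF2 are known to induce, had 19.7 and 12.9 on knockout 1 and 2, against 18.2 and 17.0 on heterozygous 1 and 2 (1423627_at). The highest array was 1.53 times the lowest, and the log2 difference was −0.14 with a standard error of 0.55. After quantile normalization it had 16.8 and 15.7 on the knockout arrays, against 22.8 and 14.2 on the heterozygous arrays, so both the highest and the lowest array were then heterozygous. Its centred pattern was nearer to that of the brighter Ahr probe set (0.12 apart) than to that of any other member.

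Ephx1 encodes the microsomal epoxide hydrolase, which opens reactive epoxides left by P450 enzymes and is a known target of CAR. It had 4.13 and 69.6 on knockout 1 and 2, against 77.9 and 13.4 on heterozygous 1 and 2 (1422438_at). Each label thus held 1 high and 1 low array, and the highest was 18.9 times the lowest, or 25.2 times after quantile normalization with the same order. Of all probe sets above the filter, 0.346% had a range over the arrays at least as wide. The mean was 36.9 ± 46.3 on the knockout arrays and 45.6 ± 45.6 on the heterozygous arrays (SD, n = 2 each). The labelled log2 difference was −0.89 with a standard error of 1.09 and a 95% interval of −3.27 to 1.48. It was 1.09 without knockout 1, −2.88 without knockout 2 (unadjusted p = 0.0011, adjusted p = 0.080 by limma) and 0.36 without heterozygous 1. The fit without knockout 2 has a lone knockout array, assumed to vary like the 2 heterozygous arrays, so its p rests on their spread and on that of the other probe sets. Within replicate 1 the log2 difference was −4.14 and within replicate 2 it was 2.35, each of 1 array against 1. The direction was thus opposite in the 2 replicate numbers, as for Ap1m2 (−2.85 and 2.28). Sex pattern and the mismatch of Ap1m2 with 2 of the labels cannot be told apart here.

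**Figure D2:**
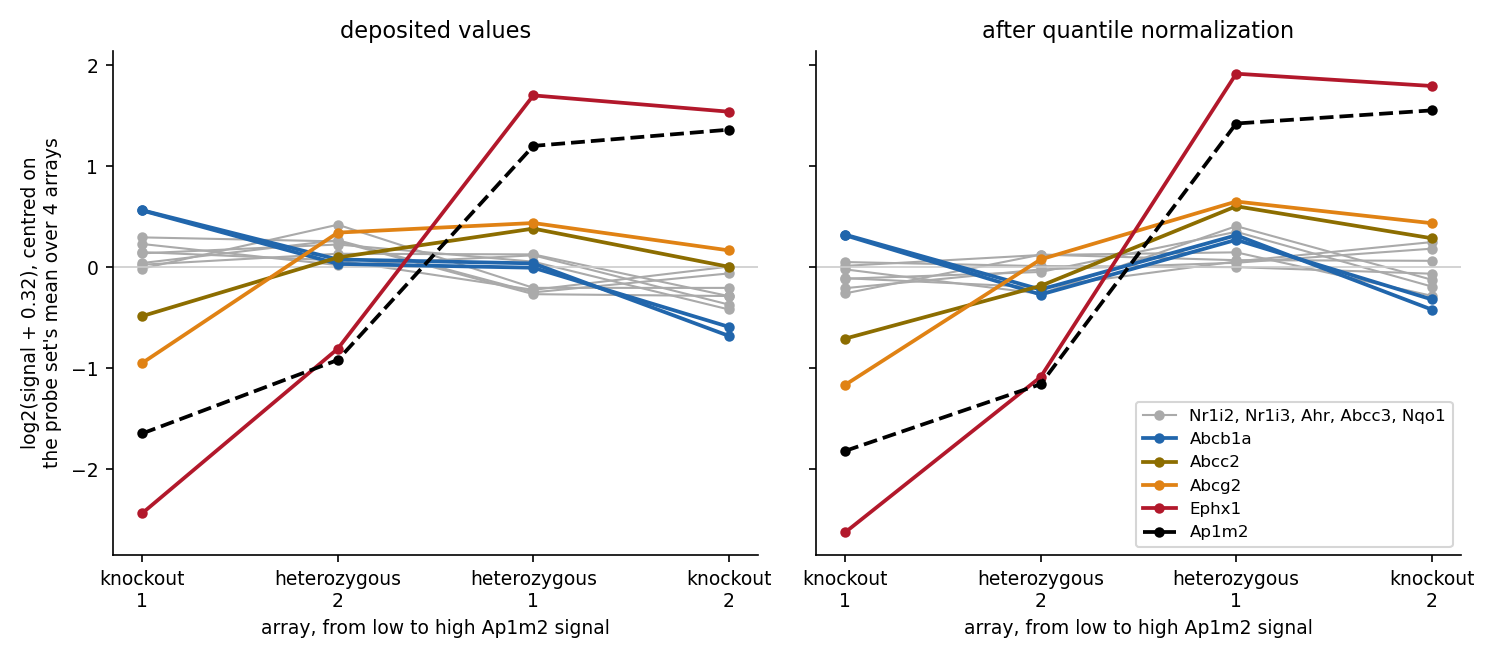
Centred log2 signal of the 12 probe sets and of Ap1m2 on the 4 arrays, put in order from low to high Ap1m2 signal, for the deposited values (left) and after quantile normalization (right); each line is 1 probe set. Ephx1 is low on knockout 1 and heterozygous 2 and high on heterozygous 1 and knockout 2, as Ap1m2 is, in both panels.

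Set in order of Ap1m2 signal, the arrays were knockout 1, heterozygous 2, heterozygous 1 and knockout 2, and along that order Ephx1 had 4.13, 13.4, 77.9 and 69.6. It was the only member with both arrays of low Ap1m2 below both of high Ap1m2 on the deposited values, an order that 11.7% of all probe sets above the filter had. The reverse order was met by 7 of the 12 probe sets, against 52.7% of all probe sets. After quantile normalization these were 5 of the 12 below (Ephx1, Abcg2, Abcc2, Nr1i3 and the second Nr1i2 probe set), against 24.9% of all, and 1 of the 12 above, against 28.4% of all. Of the 7 above, 2 were then below (Nr1i3 and the second Nr1i2 probe set), 4 were neither above nor below and 1 was still above, and 2 that were neither (Abcg2 and Abcc2) were then below. The nearly level first Nr1i2 probe set and Ephx1 kept their side, and Nqo1 and the dimmer Ahr probe set were on neither side on both scales. The counts over all probe sets moved in the same directions. Since Ap1m2 was measured on the same arrays, its order was used for these counts only, and no mean, difference or test is given by it.

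Between the labelled groups, 0 of the 12 probe sets passed an adjusted p of 0.05 (limma, adjusted p = 0.999868 for each), against 0% of all 22519 probe sets above the filter. At an unadjusted p under 0.05 there were 0 of the 12 and 170 of all. On the deposited values both knockout arrays lay below both heterozygous arrays for 3 of the 12 (Abcg2, Abcc2 and the dimmer Ahr probe set), against 10.7% of all probe sets, and above them for 0 of the 12, against 6.56%. After quantile normalization the counts were again 3 below, against 11% of all, and 0 above, against 11.7%, but the 3 were both Ahr probe sets and Abcc3. Only the dimmer Ahr probe set was in both counts. The log2 difference was negative for 10 of the 12, against 49.3% of all probe sets. Its median was −0.18, against a median of 0.0055 over all probe sets. Without knockout 2 the split was 6 and 6, with a median of 0.015. The intervals leave room for a change of 2-fold in at least 1 direction for each of the 12, so the lack of calls does not show a lack of difference.

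**Figure D3:**
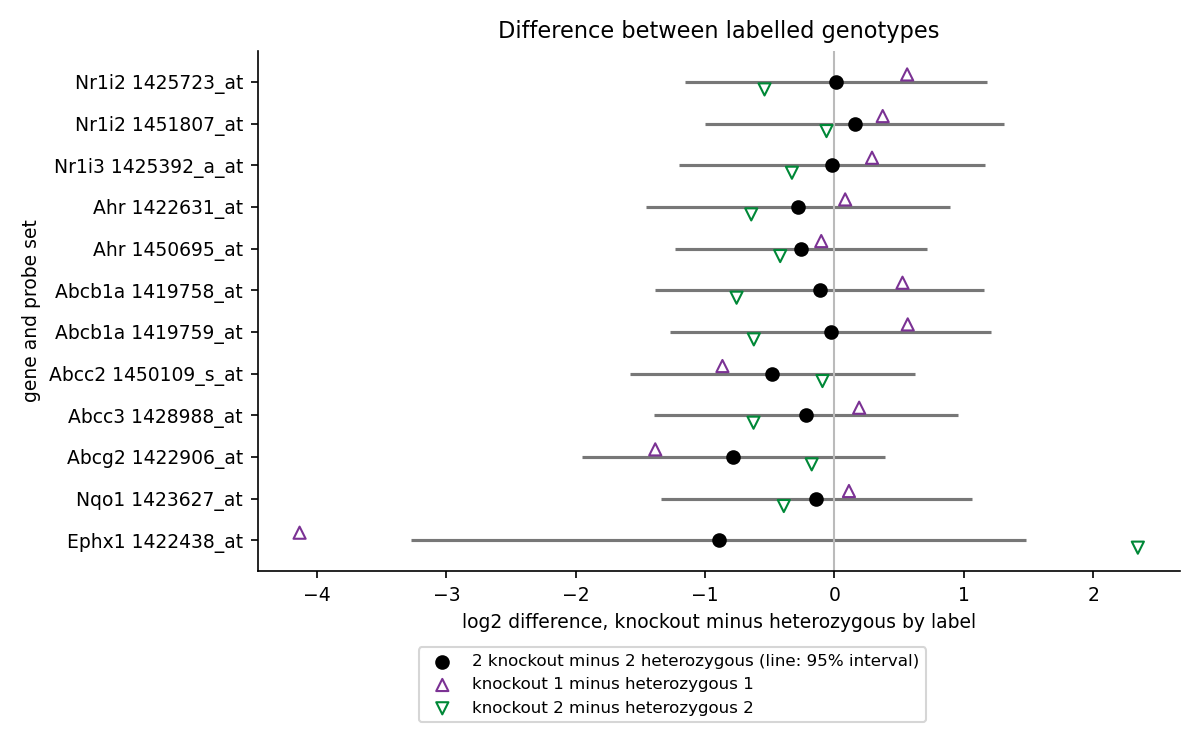
Log2 difference of each probe set, knockout minus heterozygous by label, as the fitted difference of 2 against 2 arrays with its 95% interval (black) and as the differences within replicate 1 (upward triangles) and within replicate 2 (downward triangles). Every interval spans 0, and the triangles of Ephx1 lie at −4.14 and 2.35.

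Within replicate 1, knockout 1 was above heterozygous 1 at 8 of the 12 probe sets, against 68.8% of all probe sets, with a median log2 difference of 0.15, against 0.36 over all. Within replicate 2, knockout 2 was above heterozygous 2 at 1 of the 12, against 24.8% of all, with a median of −0.41, against −0.37 over all. By these medians of all probe sets, knockout 1 and heterozygous 2 tended to read higher than the other array of their replicate number. The cause of this was not tested. After quantile normalization the medians over all probe sets were 0.031 and −0.016, and those of the 12 were −0.29 and 0.045, with 3 and 6 of the 12 higher, against 51.9% and 48.4% of all. Ephx1, Abcg2 and Abcc2 were lower on knockout 1 than on heterozygous 1 and, after quantile normalization, higher on knockout 2 than on heterozygous 2.

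Other genes of the pathway were described by list, each gene by its brightest probe set above the filter, and none of them passed the adjusted threshold. Of the sensors' partners and sister receptors, 12 of 18 were measured above the filter, 7 with a positive and 5 with a negative log2 difference (median 0.041). Vdr, the vitamin D receptor, which binds elements like those of PXR, had the lowest, with 33.8 and 88.5 on the knockout arrays against 99.2 and 103 on the heterozygous arrays (log2 difference −0.88, standard error 0.57). Knockout 1 again stood apart. Rxrb, a partner of PXR and CAR, had the highest (0.52), with 11.4 and 10.3 on the knockout arrays against 5.49 and 10.2 on the heterozygous arrays. The coactivator gene Ncoa2 was at −0.33 and Ppara, the fatty acid sensor, at 0.29.

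Enzymes that PXR and CAR are known to induce had 17 of 18 negative log2 differences (median −0.62), against 49.3% of all probe sets, with 0 past the adjusted threshold and 1 at an unadjusted p under 0.05 (limma), which was Cyp3a11, named after its value was seen. Of the 18, 14 were lowest on knockout 1, against 21.1% of all probe sets, and 16 after quantile normalization, against 32.8% of all. The array order of Ephx1 was that of 11 of the 18, against 4.39% of all. Cyp2b10, the classical target of CAR, had 2.00 and 166 on knockout 1 and 2, against 270.3 and 49.5 on heterozygous 1 and 2 (log2 difference −2.56, standard error 1.44). The suffix of its probe set, too, marks probes that can match other transcripts. Its arrays stood in the same order as those of Ephx1, while the signal of Nr1i3 itself stayed within 1.44-fold. Cyp3a25, a P450 of the family that PXR controls, had 13.3 and 243 on the knockout arrays, against 297 and 150.3 on the heterozygous arrays (−1.88, standard error 0.98). At the other end were Papss2, which makes the sulfate donor (−0.052), and Alas1, the first enzyme of haem synthesis (0.17). Without knockout 1 the list median was 0.094, and it ranged down to −1.49 with 1 of the other arrays left out.

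Of 6 AhR targets, Cyp1a1 and Tiparp passed the filter. Cyp1a1, the P450 most strongly induced by AhR, had 0.699 and 0.634 on the knockout arrays, against 5.17 and 0.629 on the heterozygous arrays, so heterozygous 1 was the only array with a signal above the median. Tiparp, which encodes an ADP-ribosyltransferase that restrains AhR, had 12.3 and 9.95 against 14.6 and 7.84. On the deposited values Ahr was highest on heterozygous 2 by its brighter probe set and both targets on heterozygous 1, while after quantile normalization Ahr too was highest on heterozygous 1.

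Antioxidant genes that NRF2 is known to induce, listed without Nqo1, went both ways. Of these, 11 of 16 were negative (median −0.041), against 49.3% of all probe sets. The malic enzyme gene Me1 (−0.62) and Gclm, a subunit of the glutathione-making ligase (−0.32), were lowest, and Hmox1, haem oxygenase (0.27), and Gsr, glutathione reductase (0.16), highest. Of 22 other genes of the ABC family, 16 were negative (median −0.12), against 49.3% of all probe sets. Among them, Abce1 and the Abcf genes are not transporters. Abcg8, which with Abcg5 returns sterols to the lumen, had 6.84 and 32.6 on the knockout arrays, against 32.3 and 29.1 on the heterozygous arrays (−1.01, standard error 0.70), with knockout 1 apart as for Abcg2. Abcc6 was at −0.87, and Abce1 and Abcf2, which act in ribosome recycling and translation, were at 0.52 and 0.81. A list around P450 electron transfer had 8 of 11 negative (median −0.19), against the same 49.3% of all probe sets. Its lowest member, Ephx2, the soluble epoxide hydrolase, takes no part in that transfer, and was at 50.4 and 162 on the knockout arrays against 236 and 125 on the heterozygous arrays (−0.93, standard error 0.59). Pgrmc1, a haem-binding partner of P450 enzymes, was at −0.49, and Sqle (0.078) and Cyb5r1 (0.33) were at the upper end.

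**Figure D4:**
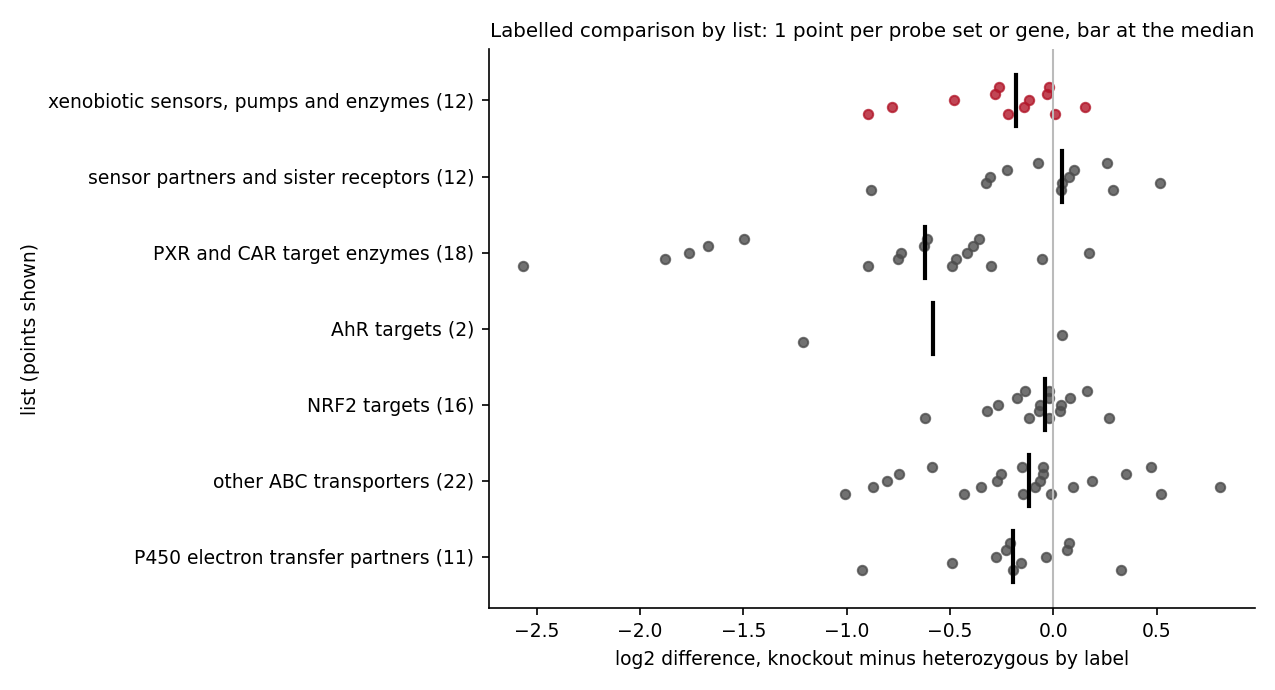
Log2 difference, knockout minus heterozygous by label, of the 12 probe sets and of the genes on 6 related lists, with 1 point per probe set or gene and a bar at each median; the number of points is given beside each list. The PXR and CAR target enzymes have a median of −0.62 and reach −2.56, while the NRF2 targets have a median of −0.041.

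Most but not all lymphocyte and myeloid markers stood in the array order of Ephx1, which 4.39% of all probe sets above the filter had. From low to high, that order is knockout 1, heterozygous 2, knockout 2, heterozygous 1. Of 18 markers of T cells and intraepithelial lymphocytes, 15 passed the filter, 12 of them had that order, and all 15 were lowest on knockout 1, as were 21.1% of all probe sets. Their summed signal was 22.1 and 330.1 on the knockout arrays, against 527 and 118 on the heterozygous arrays. Granzyme A, Gzma, had 5.79 and 149 against 244 and 53.8, and the chemokine gene Ccl5 had 2.01 and 61.8 against 93.2 and 13.3. No marker was listed at 0. Of 16 myeloid markers 14 passed and 9 had the order of Ephx1, with sums of 43.5 and 67.2 on the knockout arrays against 131 and 46.8 on the heterozygous arrays. The 2 brightest myeloid markers did not have it. Csf1r had 3.89 and 8.19 on the knockout arrays against 22.7 and 3.26 on the heterozygous arrays. Lyz2 had 20.8 and 15.6 against 42.0 and 18.1. The sums of the B and plasma cell, stromal, acinar, and goblet and Paneth cell lists did not have this order. Of 20 proliferation genes 18 passed, and all 18 were highest on knockout 1, as were 41.1% of all probe sets, with sums of 629 and 210.5 on the knockout arrays against 201 and 329 on the heterozygous arrays. In bulk samples, fewer cells of a type and less RNA per cell cannot be told apart, and the part of these cell types in the signals of Ephx1, Abcg2, Abcc2 and the target enzymes was not tested. 

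Enterocyte markers were divided. Their sum, which very bright genes such as Fabp1 and Apoa1 dominate, was at 92.2% of its highest array on knockout 1, and at 76.1% after quantile normalization, while Ephx1 was at 5.30% and 3.97%. Of the 19 that passed, 5 had the array order of Ephx1, and they are named here after their values were seen as the brush border enzymes Lct, Ace, Anpep and Dpp4 and the glucose carrier Slc5a1. Lct, lactase, had 3.97 and 237 on knockout 1 and 2, against 312 and 82.3 on heterozygous 1 and 2. Ace had 6.49 and 54.5 on the knockout arrays, against 61.3 and 27.8 on the heterozygous arrays, and Anpep had 46.7 and 190.3 against 203 and 137. On knockout 1 these enterocyte genes were thus low together with Ephx1 and with the lymphocyte markers. Of the 19, 7 were lowest on knockout 1, against 21.1% of all probe sets, and 13 after quantile normalization, against 32.8% of all.

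**Figure D5:**
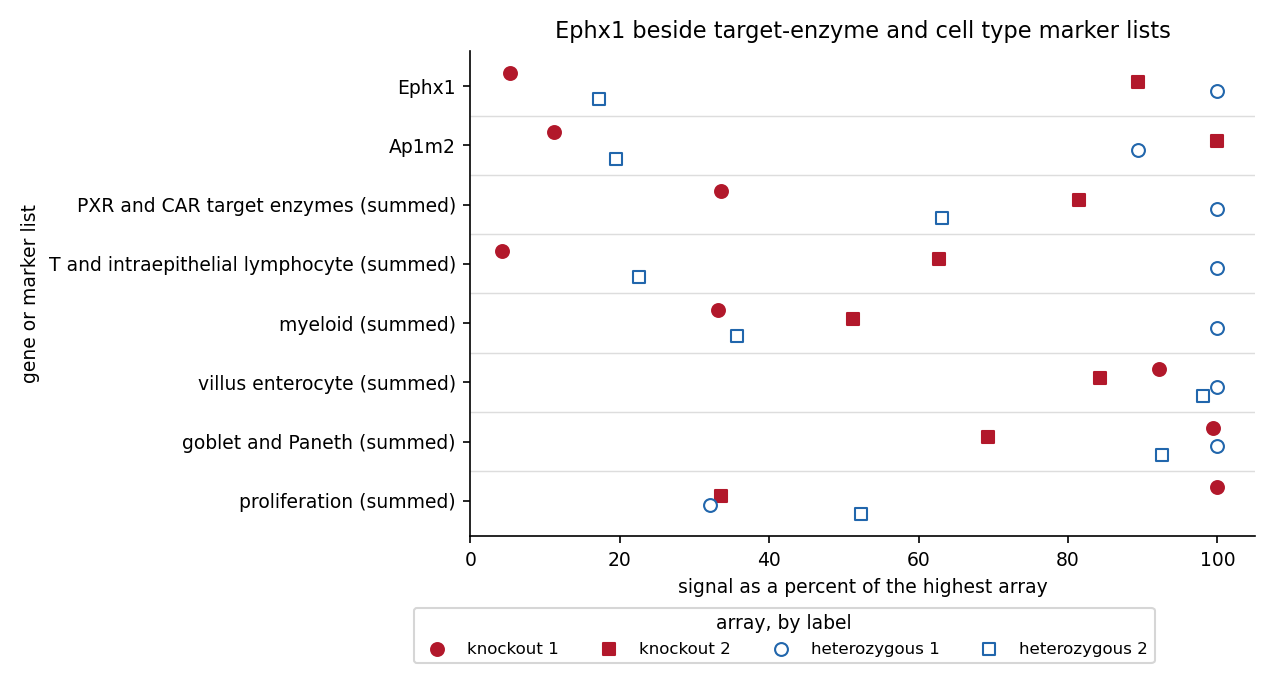
Signal of Ephx1 and Ap1m2 and summed signal of 6 gene lists on each array, as a percent of the highest array; filled red points are knockout and open blue points heterozygous arrays by label. Ephx1 and the lymphocyte list are lowest on knockout 1 and highest on heterozygous 1, and the proliferation list is highest on knockout 1.

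Among themselves, the 2 probe sets of Abcb1a were the most alike pair of the 12 (0.054 apart as a root mean square of centred log2 values), followed on the deposited values by those of Ahr (0.10), which after quantile normalization were 0.15 apart, more than Nr1i3 and Abcc3 (0.099). Nr1i3 and Abcc3 were the nearest pair of different genes (0.11), and the 2 probe sets of Nr1i2 were further apart from each other (0.19) than the second of them was from Nr1i3 (0.12). Over all genes, those nearest in pattern to the brighter Nr1i2 probe set on the 4 arrays were Trim24 (0.011), 3110040N11Rik (0.016) and Fam122a (0.021). Nearest to the brighter Abcb1a probe set were Gclc (0.013), Skp2 (0.019) and 1500035N22Rik (0.036). These names are a description over 4 arrays only, on the deposited values, and neighbours after quantile normalization were not sought. The brighter Nr1i2 probe set varied little, since 92.5% of probe sets above the filter had a range at least as wide, and its array order changed with quantile normalization.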

How the data were processed

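RNA of 2 AP-1B-/- and 2 AP-1B+/- samples, by label, was hybridised to 1-colour Affymetrix arrays. Per the submitters' processing notes the authors' deposited intensity values came from MAS5, version not given in the sources used here. Each array had a median near 1, a rescaling seen in the values and not stated. Precision is limited by having 4 arrays, and neither scanner output nor detection calls were used.

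The platform's annotation gave 1 gene for 34945 of 45037 probe sets and set the names used. Values were taken as log2(value + 0.321), the 25th percentile of all values, so fold differences of dim probe sets are understated. The 22519 probe sets whose mean reached the median of means (0.983) were kept. Differences were fitted by limma 3.58.1 under R 4.3.3, with a trended eBayes step, and p-values were adjusted by Benjamini-Hochberg over every kept probe set, with 0.05 as the threshold. With 2 arrays a group, no exact permutation test can reach that threshold, so none was run. The fit was tested on simulated data. Quantile normalization and the other settings varied are given with their effect at the end.

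The members and lists were chosen with earlier results of these data known. Named were all member probe sets, Ap1m2 and Abcb1b, in each pathway list the 2 highest and 2 lowest differences, in marker lists the 2 brightest genes where described, and the 3 genes nearest in pattern to Nr1i2 and Abcb1a. Exceptions are said to be so. Lists were described by counts and medians, with no set test. Of the marker lists, summed signals in the order knockout 1, knockout 2, heterozygous 1, heterozygous 2 were 434, 368, 745 and 402 for B and plasma cells, 30.4, 26.7, 27.3 and 21.2 for stroma and muscle, 45.7, 129.6, 44.4 and 53.7 for pancreatic acinar cells, and 2485, 1734, 2501 and 2315 for goblet and Paneth cells.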

Additional observations from a re-analysis of the deposited data

How the results depend on the processing

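Of 167 alternative values of single member probe sets, 155 kept their sign and none passed the adjusted threshold. A change of trend, block or filter alone cannot move a difference, so the signs under those settings were fixed in advance. Every sign change came with quantile normalization, with median centring or with 1 array left out. The Nr1i2 probe set 1425723_at turned to −0.012 with quantile normalization and −0.015 with median centring. With 1 array left out in turn, the log2 difference ranged from −0.28 to 0.30 for that probe set, −0.28 to 0.24 for Nr1i3, −0.74 to 0.51 and −0.60 to 0.55 for Abcb1a, −0.56 to −0.0021 and −0.42 to −0.11 for Ahr, −0.72 to −0.24 for Abcc2, −0.53 to 0.095 for Abcc3, −0.44 to 0.16 for Nqo1 and −2.88 to 1.09 for Ephx1. Over those 4 fits the median of the 12 ranged from −0.30 to 0.015, and the number of all probe sets past the threshold from 0 to 240, the highest without knockout 2 and 24 without knockout 1, in fits where a lone array is assumed to vary like the other group. Testing only the brightest 25% of probe sets gave 1, which was no member. Medians of pathway lists changed sign in 10 of 90 cases over all 6 lists, 9 of them with 1 array left out. The 90 include changes of trend or block and the fit without the low-value filter, under which these medians could not move. With 1 array left out they ranged from −0.23 to 0.29 for sensor partners, −1.49 to 0.094 for PXR and CAR targets, −1.43 to 0.27 for AhR targets, −0.23 to 0.11 for NRF2 targets, −0.36 to 0.088 for other ABC genes and −0.35 to 0.11 for the list around P450 electron transfer, so the median of each list changed sign in at least 1 such fit. The cause of these turns was not tested. With the replicate block, 0 probe sets passed (145 at an unadjusted p under 0.05 by limma). Each block held 1 array of each label, so the median of the 12 stayed at −0.18 by construction. The labels do not say that a number marks a pair, and the differences between replicates 1 and 2 of the 2 genotypes were negatively correlated over probe sets (r = −0.51). With crossed pairs as a block, chosen after seeing the data, 0 passed (1246 at the unadjusted threshold, 2 of them members, Abcg2 and Ephx1). No depth is known for arrays, and the dimmer Ahr probe set and both of Abcb1b, near the array median, are the least certain.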

Other observations

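Sqle and Cyp51, sterol synthesis genes singled out after their values were seen, ran opposite to Ephx1 in their high and low arrays. Sqle, squalene epoxidase, which takes its electrons from the same reductase as the P450 enzymes, had 52.0 and 5.82 on knockout 1 and 2, against 6.34 and 42.9 on heterozygous 1 and 2. Cyp51, the lanosterol demethylase, had 60.3 and 6.58 on the knockout arrays, against 9.90 and 54.5 on the heterozygous arrays. For both genes, knockout 1 and heterozygous 2 were the high arrays. Of all probe sets above the filter, 52.7% had these arrays above both others, and 28.4% after quantile normalization. Each label held 1 high and 1 low array, and the log2 differences by label were 0.078 and −0.21 (standard errors 0.99 and 0.97).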
